A study of Homo sapiens with 24 samples.

Results

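Repressive histone methyltransferases are the enzymes that place methyl groups on lysine 9 or lysine 27 of histone H3. The 8 genes described here are SUV39H1, SUV39H2, EHMT1, EHMT2, SETDB1 and SETDB2, which act on lysine 9, and EZH1 and EZH2, which act on lysine 27. They were taken out of the 21386 genes in each count table, and all 8 were found and passed the filter on low counts in every comparison. The set was chosen because SUV39H1 was lower after MCM7 knock-down in A375 cells, so values from the shMCM7 libraries of A375 describe the set. No p-value is given for the members there, and counts of members past a threshold are part of the description.

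The study asked what happens to gene expression when MCM7, a subunit of the helicase that is loaded onto replication origins, is depleted in cells held in G1. RNA was sequenced from 24 libraries, with 3 biological replicates in each of 8 groups. In A375, a human melanoma line, and in A549, a human lung adenocarcinoma line, parental cells and cells with a Dox-inducible shMCM7 were compared, each with Dox (doxycycline, 1 μg/ml for 72 h) and without it (noDox). All groups, controls included, were synchronised by a double thymidine block. The shMCM7 cells were a drug-selected population carrying a lentiviral hairpin and not 1 clone. The labels name the controls parental cells, so a hairpin that targets nothing is not among the groups described here.

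Trimethylation of histone H3 lysine 9 marks constitutive heterochromatin and is bound there by HP1 proteins. SUV39H1 and SUV39H2 are the paralogous enzymes that place it at pericentromeric repeats, SETDB1 places it at retroelements with the help of TRIM28, and EHMT1 and EHMT2 form the heterodimer that adds 1 or 2 methyl groups in gene-rich regions. Trimethylation of lysine 27 is the mark of Polycomb repressive complex 2 (PRC2), in which EZH1 or EZH2 is the catalytic subunit beside EED and SUZ12. EZH2 is the form that predominates in dividing cells, whereas EZH1 is also abundant in resting ones.

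Sequencing was deep in A375, with 146656792 to 283721575 counted reads per library, and much shallower in A549, with 17911338 to 23452823. Melanoma line markers summed to between 565 and 726 CPM (reads of a gene relative to the scaled library total) in A375 against 37.6 to 54.5 in A549, and lung epithelial markers to between 5506 and 7727 CPM in A549 against 277 to 476 in A375. In A375, 4 of the 7 melanoma markers were above 1 CPM in every library, and in A549 5 of the 7 lung epithelial markers. The melanoma sum in A375 was mostly SOX10, at 599 ± 33 CPM in parental noDox (SD, n = 3), against 0 in parental noDox A549. MITF, another melanoma marker, went the other way in parental noDox, at 28.2 ± 2.2 CPM in A375 and 47.3 ± 7.4 CPM in A549. MLANA and TYR, markers of pigmented melanocytes, were at or near 0 in every A375 library, as were SFTPB and NKX2-1, markers of lung epithelium, in A549. Fibroblast and blood markers, 5 genes, summed to at most 103 CPM in any library.

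The hairpin was directed against a 21-base site that lies across a junction of neighbouring coding exons of MCM7, with its ends at chr7:100097728-100097836 (GRCh38, minus strand) around an intron. The site, printed whole because the knock-down rests on it, reads as follows.
shMCM7 target: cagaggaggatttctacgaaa
In A375, MCM7 stood at 76.1, 74.4 and 75.9 CPM in the 3 shMCM7 Dox libraries. The 6 parental libraries lay between 333 and 360 CPM. Of the shMCM7 noDox libraries, replicates 2 and 3 were in that range at 342 and 349 CPM, but replicate 1 was at 128 CPM and goes against its label. The log2 fold changes of the members between shMCM7 Dox and noDox are therefore given with and without it. MCM7 in shMCM7 Dox was at 0.276 times the noDox mean with this library and at 0.218 times without it.

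In A549, 3 libraries with 3 different labels had low MCM7. They were shMCM7 Dox replicate 3 at 98.2 CPM, shMCM7 noDox replicate 2 at 102 CPM and parental noDox replicate 2 at 92.4 CPM. The other A549 libraries lay between 305 and 346 CPM, among them the shMCM7 Dox libraries 1 and 2. The labels were kept as deposited and no A549 library was moved between groups, so the A549 comparisons below are by label and each value stands beside its MCM7 level.

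The gene starts of SUV39H1, SUV39H2, EZH1 and EZH2 are shown for their base composition and for short motifs of cell cycle and general promoters. Starts of the EHMT and SETDB genes are not printed, although the difference in A375 was uneven within the SETDB pair too. Each stretch runs from 120 bases before to 20 bases after an annotated RefSeq start (GRCh38.p14), 5′ to 3′ on the strand of the gene, and capitals mark any match, on either strand, to an E2F site (4 forms were searched, TTCGCGC as the first, TTGGCGC as the second, TTCCCGC as the third and TTGCCGC as the fourth), a CCAAT box (CCAAT), a CHR element (TTTGAA), an E-box (CACGTG) or a GC box (GGGCGG). Matches may overlap each other. The stretches are, in this order, chrX:48695434-48695573 and chrX:48696614-48696753 (both plus strand), chr10:14878746-14878885 (plus), chr17:42745021-42745160 (minus) and chr7:148884272-148884411 (minus).
SUV39H1, first start: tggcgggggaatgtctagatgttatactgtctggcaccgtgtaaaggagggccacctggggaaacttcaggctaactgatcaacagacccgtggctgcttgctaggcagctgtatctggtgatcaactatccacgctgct
SUV39H1, second start: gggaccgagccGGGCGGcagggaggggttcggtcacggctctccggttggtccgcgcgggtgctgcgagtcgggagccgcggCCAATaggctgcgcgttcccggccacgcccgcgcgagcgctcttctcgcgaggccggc
SUV39H2: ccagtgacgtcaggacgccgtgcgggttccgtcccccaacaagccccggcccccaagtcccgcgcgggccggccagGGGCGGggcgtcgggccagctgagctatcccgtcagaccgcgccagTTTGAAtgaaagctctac
EZH1: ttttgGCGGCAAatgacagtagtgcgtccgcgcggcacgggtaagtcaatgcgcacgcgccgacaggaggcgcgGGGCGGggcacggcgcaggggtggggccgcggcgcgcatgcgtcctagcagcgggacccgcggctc
EZH2: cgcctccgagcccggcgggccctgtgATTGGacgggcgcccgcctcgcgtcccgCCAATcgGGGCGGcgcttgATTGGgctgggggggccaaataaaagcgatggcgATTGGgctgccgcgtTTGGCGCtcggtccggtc

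Over the full windows of 300 bases, E2F letters were found for EZH1 and EZH2 and for no other member, while 12.97% of 35116 annotated windows held them. The first SUV39H1 start held none of the motifs and had 56.3% G and C, and the second had 72.0%, with a CCAAT box and GC boxes. The first EZH2 start, the one printed, held the E2F letters and 4 CCAAT boxes, a motif of 34.61% of windows, and its second start held only a GC box. The CHR letters were found for SUV39H2 alone among the members, 3 to 8 bases after the start, and in 15.16% of all windows. GC boxes were found for 7 of the 8 members and in 44.95% of windows, and E-boxes for EHMT2 and SETDB1 and in 7.26% of windows. A match of letters is not a shown binding site, and several members have more than 1 start.

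In A375 the knock-down libraries differed from the noDox libraries in 2 directions within this set. SUV39H1 stood at 0.446 times and SUV39H2 at 0.720 times its noDox level, whereas EZH1 stood at 1.43 times. SETDB1 was at 0.838 times and EZH2 at 0.891 times, and EHMT1, EHMT2 and SETDB2 were at 1.12, 1.07 and 1.00 times their noDox level. The difference was uneven within the SUV39H and the SETDB pair, and opposite in sign for EZH1 and EZH2. In bulk RNA, fewer cells of a kind and less RNA per cell cannot be told apart.

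**Figure D1:**
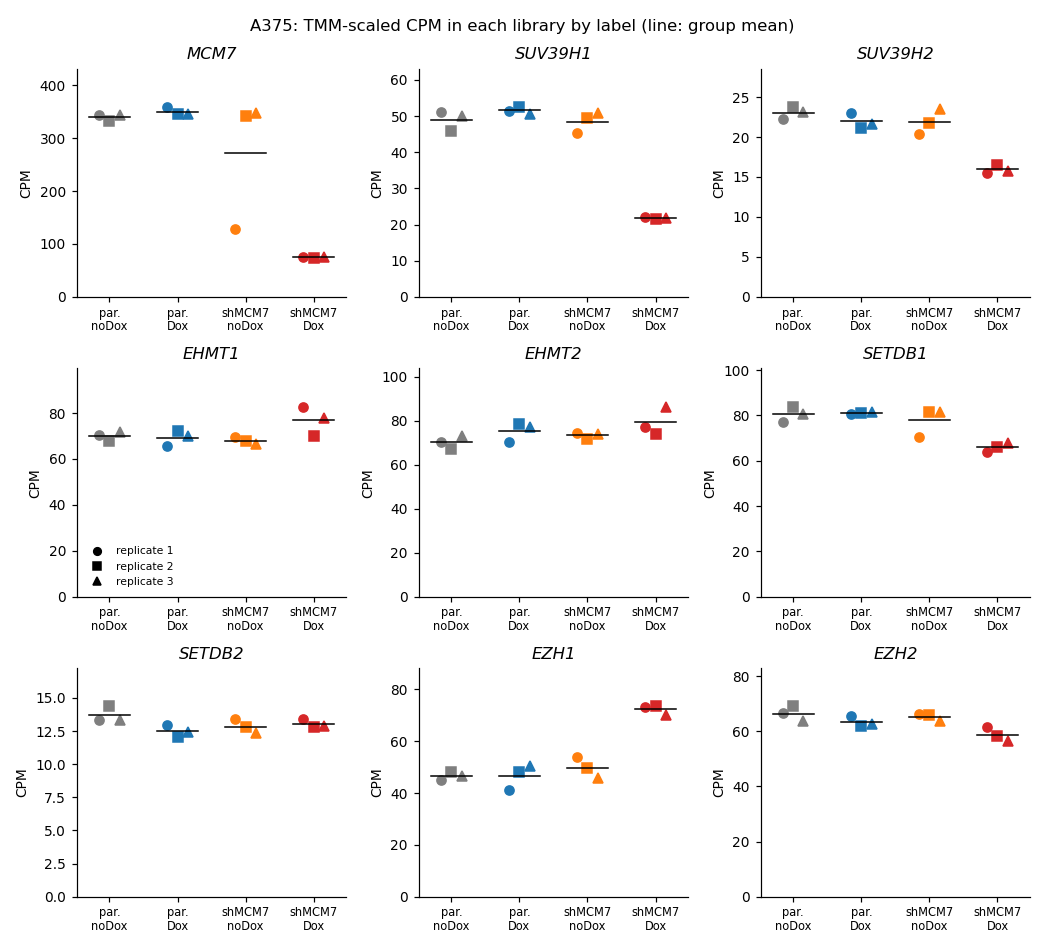
TMM-scaled CPM (vertical axes, from 0) of MCM7 and the 8 methyltransferase genes in the 12 A375 libraries; each point is a library, shapes are replicates 1 to 3, colours are the 4 labelled groups and lines are group means. SUV39H1 sits between 21.7 and 22.2 CPM in the shMCM7 Dox libraries and between 45.2 and 52.6 CPM in the other 9, and MCM7 in shMCM7 noDox replicate 1 sits apart from its group at 128 CPM.

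SUV39H1 (ENSG00000101945, chrX:48695554-48709012, plus strand, GRCh38), the founding member of the family, was measured at 22.2, 21.7 and 21.7 CPM in the shMCM7 Dox libraries of A375. In shMCM7 noDox it was measured at 45.2, 49.3 and 50.8 CPM. The parental libraries held 51.4, 52.6 and 50.7 CPM with Dox and 51.0, 46.0 and 50.1 CPM without it. The 3 knock-down libraries thus lay below all 9 others with no overlap, and differed among themselves by far less than from the rest. Against shMCM7 noDox alone, 26.5% of 16087 genes were lower without overlap. The share of genes below all 9 others was not counted, and the gene was chosen on this contrast. The log2 fold change between shMCM7 Dox and noDox was -1.17 (SE 0.060), and it was -1.21 (SE 0.057) without noDox replicate 1. That replicate, in which MCM7 stood 80.6% of the way from the other noDox libraries to the Dox mean, had SUV39H1 only 17.3% of the way. SUV39H1 ranked 275 from the lowest log2 fold change of 16087 tested genes. An antisense gene that is not in the count tables, AC231533.1, overlaps 20.3% of its exon bases, and since the strand setting of the counting is not given, reads of the 2 genes cannot be told apart there.

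SUV39H2 (ENSG00000152455, chr10:14878820-14904315, plus strand), its paralogue, held 15.5, 16.6 and 15.8 CPM in shMCM7 Dox and 20.4, 21.7 and 23.6 CPM in shMCM7 noDox. The parental libraries held between 21.2 and 23.8 CPM. The knock-down libraries were again the lowest of the 12, where 26.5% of genes were lower without overlap against shMCM7 noDox alone. The log2 fold change was -0.47 (SE 0.072), or -0.52 without noDox replicate 1. The drop was smaller than that of SUV39H1, so the level of SUV39H1 relative to SUV39H2, per kilobase of exon, was 1.45 ± 0.066 (SD, n = 3) in shMCM7 Dox against 2.35 ± 0.061 in shMCM7 noDox, 2.49 ± 0.13 in parental Dox and 2.25 ± 0.19 in parental noDox. DCLRE1C, on the other strand, overlaps 4.46% of the SUV39H2 exon bases.

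SETDB1 (ENSG00000143379, chr1:150926263-150964744, plus strand), the enzyme that TRIM28 brings to retroelements, held 63.8, 66.2 and 67.8 CPM in shMCM7 Dox. In shMCM7 noDox it held 70.4, 81.6 and 81.5 CPM, and in the parental libraries between 77.02 and 83.9 CPM. The lowest of the noDox values belonged to replicate 1, which had SETDB1 71.8% of the way to the Dox mean. The log2 fold change was -0.26 (SE 0.068), and -0.32 (SE 0.057) without that library. CERS2 overlaps 13.4% of its exon bases on the other strand. SETDB2 (ENSG00000136169, chr13:49444374-49495003, plus strand), the least expressed member, held between 12.02 and 14.4 CPM in all 12 A375 libraries, and its log2 fold change was 0.0050 (SE 0.065), or 0.034 (SE 0.070) without that library.

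EHMT1 (ENSG00000181090, chr9:137618963-137870016, plus strand), also known as GLP, held 82.8, 70.0 and 77.7 CPM in shMCM7 Dox and 69.7, 67.8 and 66.4 CPM in shMCM7 noDox. The lowest Dox library was above the highest noDox library by less than 1 CPM, and the log2 fold change was 0.16 (SE 0.062), or 0.18 (SE 0.072) without noDox replicate 1. EHMT2 (ENSG00000204371, chr6:31879759-31897687, minus strand), also known as G9a, held 77.3, 74.2 and 86.4 CPM in shMCM7 Dox and 74.6, 71.9 and 73.8 CPM in shMCM7 noDox, with overlapping groups and a log2 fold change of 0.093 (SE 0.062), or 0.10 (SE 0.073) without that library. The ratio of EHMT1 to EHMT2 RNA per kilobase of exon was 0.319 ± 0.029 in shMCM7 Dox and 0.304 ± 0.0077 in shMCM7 noDox (SD, n = 3). In parental cells it was 0.301 ± 0.0044 with Dox and 0.327 ± 0.0056 without it. Between the shMCM7 groups this RNA ratio differed by less than the spread of the shMCM7 Dox libraries.

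EZH1 (ENSG00000108799, chr17:42700275-42745049, minus strand) was the only member with a higher level beyond 1.2-fold. It held 73.3, 73.4 and 70.1 CPM in shMCM7 Dox, 53.9, 49.7 and 45.9 CPM in shMCM7 noDox, 41.0, 48.2 and 50.4 CPM in parental Dox and 45.2, 48.0 and 46.7 CPM in parental noDox. The knock-down libraries were the highest of the 12 and did not overlap the others. Against shMCM7 noDox alone, 28.6% of genes were higher without overlap, and the share against all other libraries was not counted. The log2 fold change of EZH1 was 0.52 (SE 0.065), and 0.58 (SE 0.063) without noDox replicate 1. EZH2 (ENSG00000106462, chr7:148807383-148884321, minus strand) held 61.5, 58.3 and 56.6 CPM in shMCM7 Dox and 66.2, 65.8 and 63.8 CPM in shMCM7 noDox, with a log2 fold change of -0.17 (SE 0.051), or -0.16 (SE 0.059) without noDox replicate 1. The knock-down group lay below the noDox group, yet EZH2 in parental Dox replicate 2 was 62.0 CPM, close to the highest knock-down library. The ratio of EZH2 to EZH1 per kilobase of exon was 1.30, 1.23 and 1.25 in the shMCM7 Dox libraries, against 1.90 to 2.15 in shMCM7 noDox and 1.92 to 2.46 in the parental libraries.

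By the thresholds of the study (at least 1.5-fold, p under 0.01 and a Benjamini-Hochberg false discovery rate, FDR, under 0.05) 1 of the 8 members, SUV39H1, was called lower, while 6.45% of 16087 genes were called lower and 5.58% higher. SUV39H1 was the only member past the 1.5-fold limit, at -1.17, and EZH1 came nearest to it without reaching it, at 0.52. By the FDR alone, 4 members were lower (SUV39H1, SUV39H2, SETDB1 and EZH2) and 1 was higher (EZH1), beside 22.4% of all genes lower and 20.6% higher. Groups did not overlap for 4 members in the lower direction, beside 26.5% of genes, and for 2 in the higher direction (EZH1 and EHMT1), beside 28.6% of genes. The median log2 fold change of the members was -0.081, and that of all tested genes 0.0045. Because the members were chosen on this contrast, nothing is read from these counts.

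**Figure D2:**
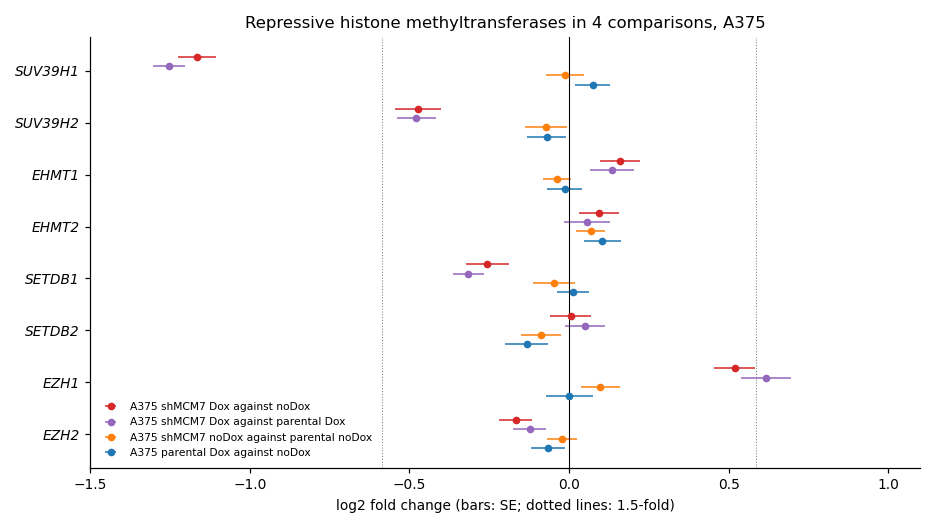
Log2 fold changes (horizontal axis; bars are SE, dotted lines mark 1.5-fold) of the 8 methyltransferase genes in 4 comparisons of A375 groups of 3 libraries. SUV39H1 lies at -1.17 and -1.25 in the 2 comparisons with knock-down libraries and near 0 in the other 2, and EZH1 lies at 0.52 and 0.62 against 0.098 and 0.000030.

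Set against parental cells that had also received Dox, the knock-down libraries again had less SUV39H1 and more EZH1. This comparison shares the 3 shMCM7 Dox libraries with the one above, so the values stand side by side and are no second measurement. SUV39H1 had a log2 fold change of -1.25 (SE 0.051), SUV39H2 -0.48 (SE 0.062), SETDB1 -0.32 (SE 0.050) and EZH2 -0.12 (SE 0.052). EZH1 had 0.62 (SE 0.077), and EHMT1, EHMT2 and SETDB2 lay between 0.049 and 0.13. SUV39H1 was past the thresholds above in the lower direction, beside 8.39% of 16086 genes, and EZH1 in the higher direction, beside 7.64%. As the shMCM7 Dox libraries entered the choice of the set, nothing is read from these counts. EZH1 was under the thresholds when parental Dox replicate 1, its lowest library, was left out, with a log2 fold change of 0.54.

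Without Dox, shMCM7 and parental A375 cells had levels of all 8 genes that lay close together. The log2 fold changes of shMCM7 noDox against parental noDox lay between -0.088 (SETDB2) and 0.098 (EZH1), and SUV39H1 stood at -0.014 (SE 0.060), or at 0.038 (SE 0.058) without shMCM7 noDox replicate 1. No member was called, beside 1.65% of 16093 genes. With the replicate number as a block, 3.01% of genes were called and still no member.

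Dox alone was tested in parental A375 cells, a comparison other than the knock-down on which the set was chosen. None of the 8 members was called by edgeR's quasi-likelihood test, and the log2 fold changes lay between -0.13 for SETDB2 and 0.10 for EHMT2, with a smallest FDR of 0.72. SUV39H1 was 0.074 higher on the log2 scale with Dox (95% interval -0.048 to 0.20, FDR 0.81). For EZH1 the difference was 0.000030 (95% interval -0.16 to 0.16, FDR 1.00). No member had an unadjusted p under 0.05, and across all 15993 genes 0% were called, with 1121 at an unadjusted p under 0.05 and 2 called by DESeq2. SETDB2 was the only member whose groups did not overlap here, at 12.02 to 13.0 CPM with Dox and 13.3 to 14.4 CPM without it, beside 6.48% of genes lower without overlap.

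Per kilobase of exon, the order of the members in parental noDox A375 cells was EZH2 at 14.7 ± 0.59 RPKM (CPM divided by the length in kilobases; SD, n = 3), SUV39H1 at 14.6 ± 0.79, SETDB1 at 11.4 ± 0.49, EHMT2 at 9.63 ± 0.42, EZH1 at 6.67 ± 0.20, SUV39H2 at 6.47 ± 0.23, EHMT1 at 3.15 ± 0.084 and SETDB2 at 2.05 ± 0.088. EZH2 and SUV39H1 did not differ beyond their spread, nor did EZH1 and SUV39H2. In shMCM7 Dox, SUV39H1 was at 6.495 ± 0.090 RPKM and came below EZH1 at 10.3 ± 0.26 RPKM. This order depends on the length used. On the length of the longest transcript the means were 18.2 RPKM for both EZH2 and SETDB1, 17.0 for EHMT2, 16.5 for SUV39H1, 10.1 for EZH1, 8.92 for EHMT1, 7.47 for SUV39H2 and 2.23 for SETDB2, so SUV39H1 came below SETDB1 and EHMT2, and EHMT1 came above SUV39H2. The union of the annotated exons of EHMT1, 22217 bases, is far longer than its longest transcript, 7842 bases.

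The partners of these enzymes were tested in the A375 knock-down. Of 12 PRC2 partners 11 were tested and none was called by edgeR's quasi-likelihood test. By the FDR alone 3 were higher and 5 lower, beside 20.6% and 22.4% of all genes, and the list median was -0.029. For EED, the subunit that reads the mark, the log2 difference was -0.22 (SE 0.059, FDR 0.015), with 46.9 ± 2.0 CPM in shMCM7 Dox and 53.9 ± 2.6 CPM in noDox (SD, n = 3). SUZ12, the scaffold of the complex, had -0.027 (SE 0.056, FDR 0.72). JARID2, which brings PRC2 to chromatin, stood at 46.6 ± 1.4 CPM in shMCM7 Dox and at 32.8 ± 2.1 CPM in noDox, a log2 fold change of 0.49 (FDR 0.00028). EPOP, PHF19 and RBBP7, further PRC2 subunits, had log2 fold changes of -0.55, -0.42 and -0.34 (FDR 0.0018, 0.00044 and 0.0013). EPOP was just under the 1.5-fold limit. It was called lower without shMCM7 noDox replicate 1 (-0.62) or shMCM7 Dox replicate 3 (-0.60), and against parental Dox (-0.69, FDR 0.00013), where it was the only PRC2 partner called. These 4 and the other context genes named under the 1.5-fold limit were chosen after their values were seen.

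Among 10 partners of the H3K9 enzymes none was called. By the FDR alone 3 were higher and 3 lower, beside 20.6% and 22.4% of all genes. TASOR, a subunit of the HUSH complex that works with SETDB1, stood 0.26 higher on the log2 scale (FDR 0.0036, edgeR's quasi-likelihood test). ZNF644 and CDYL were higher too, at 0.17 and 0.19 (FDR 0.033 and 0.023). TRIM28, ATF7IP and WIZ were lower, at -0.19, -0.19 and -0.24 (FDR 0.024, 0.013 and 0.041). Of the 3 HP1 proteins, CBX1 was lower by the FDR alone at -0.29 (FDR 0.0023), and none was called. Of the 5 Polycomb CBX readers, CBX7, which binds trimethylated lysine 27 in Polycomb repressive complex 1, rose. It held 25.1 ± 1.1 CPM in shMCM7 Dox, 13.2 ± 2.5 CPM in shMCM7 noDox, 12.8 ± 0.56 CPM in parental Dox and 12.5 ± 0.84 CPM in parental noDox (SD, n = 3), with a log2 fold change of 0.91 (SE 0.11, FDR 0.00031).

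The erasers and the related writers gave a mixed picture. Of 11 H3K9 demethylases none was called. By the FDR alone 4 were higher and 5 lower, beside 20.6% and 22.4% of all genes. KDM4D stood at -0.58 on the log2 scale (FDR 0.00093), just under the 1.5-fold limit, and was called lower without shMCM7 noDox replicate 1 (-0.61), shMCM7 Dox replicate 2 (-0.59) or shMCM7 Dox replicate 3 (-0.59). JMJD1C stood at 0.39 (FDR 0.00071). Neither of the 2 H3K27 demethylases passed any threshold. Of 6 other H3K9 and H4K20 methyltransferases, PRDM16 was called higher but rests on 11 to 40 reads in the shMCM7 Dox libraries against 1 or 2 in noDox, and KMT5A, which adds the first methyl group to H4 lysine 20, had -0.24 (FDR 0.0049). Of 5 DNA methylation genes none was called. By the FDR alone 3 of these 5 were lower, beside 22.4% of all genes. DNMT1, the maintenance methyltransferase, was 1 of the 3, at -0.24 (FDR 0.0039, edgeR's quasi-likelihood test).

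**Figure D3:**
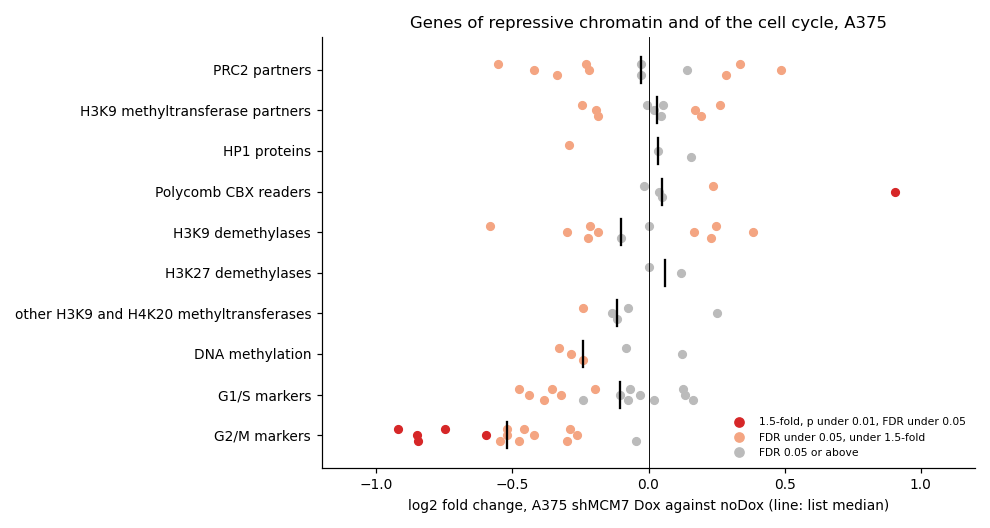
Log2 fold changes (horizontal axis) between shMCM7 Dox and noDox A375 libraries for genes of 10 lists; each point is a tested gene, black lines are list medians, and PRDM16, which has at most 40 reads, is not drawn. The G2/M markers all lie below 0 with a median of -0.52, CBX7 stands alone at 0.91, and the chromatin lists lie on both sides of 0.

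Cell cycle genes moved in the same libraries. All 15 G2/M markers had negative log2 fold changes with a median of -0.52, and 5 fell past the thresholds, beside 6.45% of all genes, namely CCNB1 (-0.92, FDR 8.5e-05), CCNB2 (-0.60, FDR 0.00014), PLK1 (-0.85, FDR 3.9e-05), AURKA (-0.75, FDR 8.0e-05) and CENPE (-0.85, FDR 7.4e-05), which are mitotic cyclins, kinases and a kinetochore motor. CCNB2 was no longer called when shMCM7 noDox replicate 3, shMCM7 Dox replicate 1 or shMCM7 Dox replicate 3 was left out, at -0.55, -0.58 and -0.56. The summed level of the 15 G2/M markers was 1167 to 1291 CPM in shMCM7 Dox and 1557 to 1695 CPM in the other A375 groups. That of 15 G1/S markers was 2027 to 2185 CPM against 2372 to 2573 CPM, with none called and a median log2 fold change of -0.10. By the FDR alone 6 G1/S markers were lower and 0 higher, and 14 of the 15 G2/M markers were lower. Of all genes, 22.4% were lower and 20.6% higher by that measure. Cell type markers moved in the A375 knock-down libraries too. The melanoma markers PMEL (-0.92, FDR 0.0039) and DCT (-1.43, FDR 0.00076) and the fibroblast marker LUM (-0.75, FDR 0.00075) fell, and the epithelial marker EPCAM (1.05, FDR 0.0015) rose, though DCT and EPCAM were under 1 CPM in every library of both groups. The other 11 tested markers of these lists were not called, and each list held genes of both directions. Of the tested melanoma markers 2 were higher and 3 lower, and of the epithelial markers 3 and 3. Of the fibroblast and blood markers 3 were higher and 1 lower. MITF, a melanoma marker, stood at 0.34 (FDR 0.0093, edgeR's quasi-likelihood test). CD68, a blood marker, held 78.2 ± 3.5 CPM in shMCM7 Dox and 54.6 ± 3.5 CPM in shMCM7 noDox (SD, n = 3). The part of these levels in the lower SUV39H1 and SUV39H2 was not tested.

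The genes whose log2 CPM followed SUV39H1 most closely over the 12 A375 libraries, among 10609 genes, were MED24, TTC38, MAPKAPK2, KIF2C and OAF, with Pearson's r between 0.994 and 0.996. Those most opposite were TMEM87B, VAPB, GSK3B, SYT11 and VPS36, with r between -0.995 and -0.992. These libraries fall into 3 knock-down and 9 other libraries, so each r mainly repeats that split and is a description only. Over the 12 A549 libraries the first 5 genes had r between 0.955 and 0.987 with SUV39H1, and the second 5 between -0.965 and -0.840. Of the members, SUV39H2 had r of 0.951 in A375 and 0.871 in A549 with SUV39H1, SETDB1 0.896 and 0.921, EZH1 -0.959 and -0.655, EZH2 0.760 and 0.747, EHMT2 -0.533 and -0.523, EHMT1 -0.705 and -0.059, and SETDB2 -0.125 and -0.755. The A549 libraries likewise split into 3 with low MCM7 and 9 others, so their r values are descriptions too.

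In A549 no member was called in either comparison by label, and libraries with 1 label differed widely. SUV39H1 was measured at 37.6, 41.5 and 17.9 CPM in shMCM7 Dox, and MCM7 in the same libraries at 305, 343 and 98.2 CPM. In shMCM7 noDox SUV39H1 was measured at 42.3, 16.8 and 37.8 CPM, beside 334, 102 and 316 CPM of MCM7. In parental Dox it held 39.1, 39.1 and 37.0 CPM beside 338, 333 and 334 CPM of MCM7, and in parental noDox 34.7, 15.3 and 40.8 CPM beside 322, 92.4 and 346 CPM. The lowest SUV39H1 value in each of 3 groups was in the library with the lowest MCM7, and the groups overlap.

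**Figure D4:**
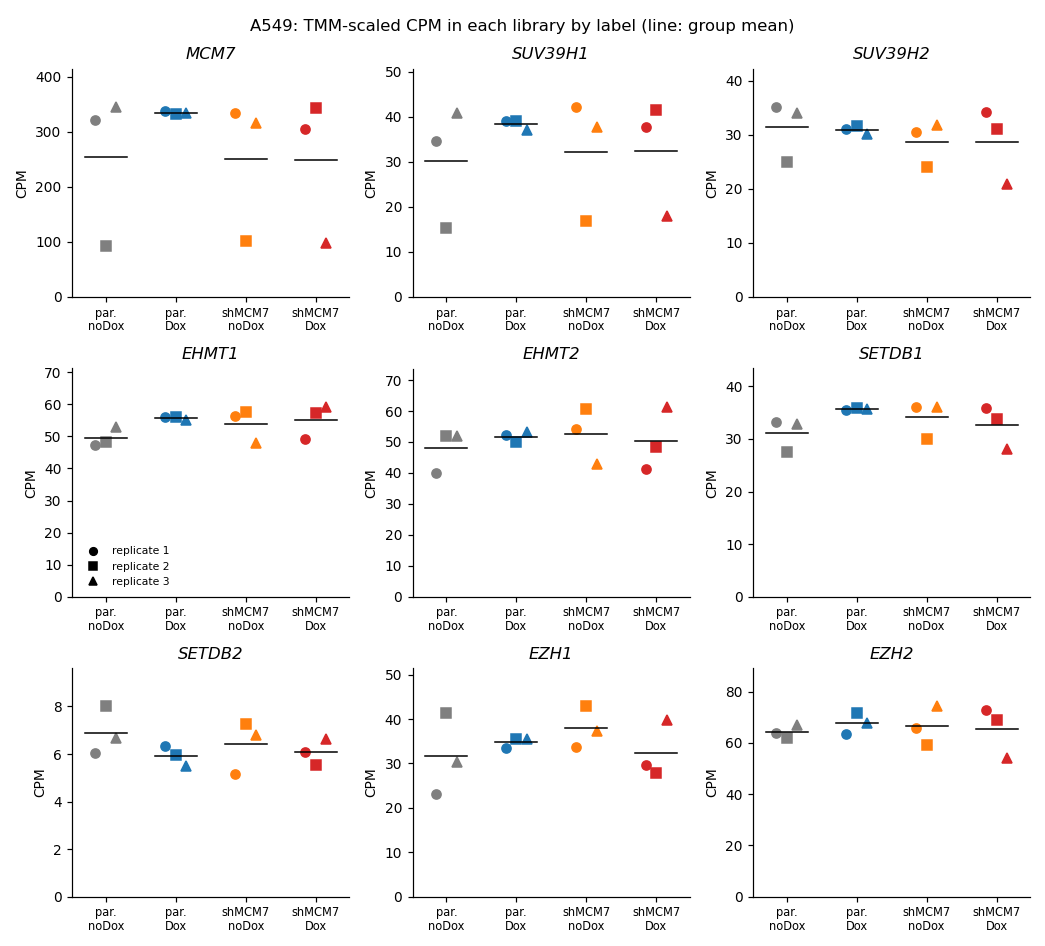
TMM-scaled CPM (vertical axes, from 0) of MCM7 and the 8 methyltransferase genes in the 12 A549 libraries, grouped by label; points are libraries, shapes are replicates 1 to 3 and lines are group means. SUV39H1 is at 17.9, 16.8 and 15.3 CPM in shMCM7 Dox replicate 3, shMCM7 noDox replicate 2 and parental noDox replicate 2, the libraries whose MCM7 is at 98.2, 102 and 92.4 CPM.

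Between shMCM7 Dox and noDox by label, SUV39H1 differed by -0.014 on the log2 scale (95% interval -0.995 to 0.97, FDR 1.00). The members lay between -0.24 (EZH1) and 0.017 (EHMT1), all with an FDR of 1.00 and none with an unadjusted p under 0.05. Of 13550 genes 0% were called by edgeR's quasi-likelihood test and none by DESeq2, with 61 at an unadjusted p under 0.05. Without both low-MCM7 libraries, a setting chosen after seeing the data, SUV39H1 differed by -0.035 (SE 0.12, FDR 1.00) and EZH1 by -0.32 (SE 0.11, FDR 1.00). The libraries left had MCM7 at 305 and 343 CPM with Dox and at 334 and 316 CPM without it. With no low-MCM7 library among them, this setting cannot show an effect of MCM7 loss. Nor can the full comparison by label, in which each group held a low-MCM7 library. There MCM7 itself differed by only -0.028 on the log2 scale (SE 0.56).

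Between parental Dox and noDox A549 libraries by label, SUV39H1 differed by 0.36 (95% interval -0.36 to 1.07, FDR 0.59), and by 0.043 without parental noDox replicate 2. The members lay between -0.20 (SETDB2) and 0.36, with a smallest FDR of 0.51 and none at an unadjusted p under 0.05. Of 13494 genes 0% were called, with 1137 at an unadjusted p under 0.05 and 9 called by DESeq2. EHMT1 (55.1 to 56.1 CPM with Dox, 47.4 to 52.8 without) and SETDB1 (35.5 to 35.8 with Dox, 27.4 to 33.2 without) had groups that did not overlap, beside 8.94% of genes higher without overlap.

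**Figure D5:**
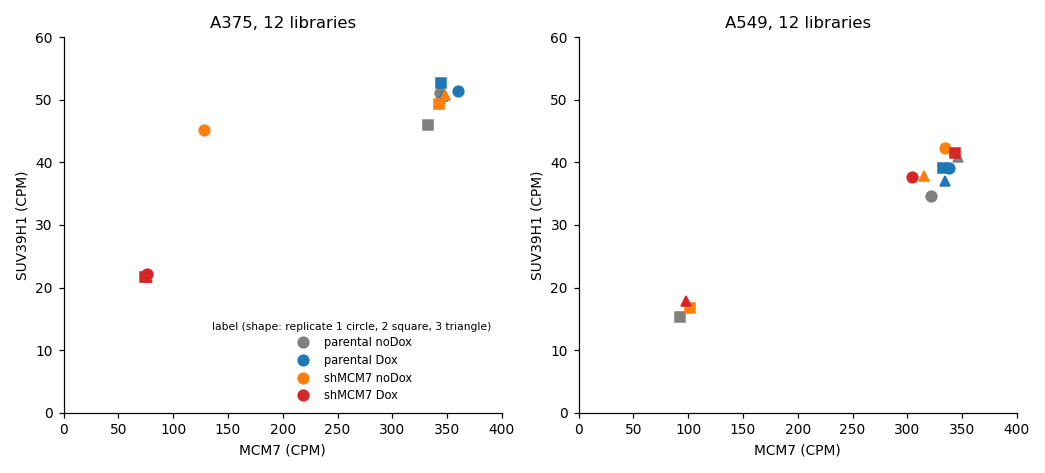
SUV39H1 against MCM7 (both in CPM, linear axes from 0) in the 12 A375 libraries (left) and the 12 A549 libraries (right); colours are labels and shapes are replicates. In A549 the 3 libraries at 92.4 to 102 CPM of MCM7 have 15.3 to 17.9 CPM of SUV39H1, whereas in A375 shMCM7 noDox replicate 1 has 45.2 CPM of SUV39H1 at 128 CPM of MCM7.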

How the data were processed

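Whole-number read counts per gene were deposited for 24 libraries. Per the labels' processing notes, the authors used bcl2fastq 2.19, Trimmomatic, STAR 2.7.1, featureCounts and edgeR with the GRCh38.p10 build. The strand setting and the treatment of multi-mapped reads are not given in the sources used here. The members and the context lists were chosen with earlier results of these data known. Ensembl identifiers were matched to GENCODE 29 (21349 of 21386 found), and promoter windows came from RefSeq.

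CPM were scaled by TMM over all 24 libraries. Each comparison of 3 against 3 libraries was fitted to all genes kept by filterByExpr with the quasi-likelihood test of edgeR 4.0.16 (R 4.3.3), and p-values were adjusted by Benjamini-Hochberg over all genes tested. Intervals are 95% and two-sided. Members carry p-values only in parental A375 and in A549, comparisons other than the A375 knock-down on which they were chosen and its shared libraries. Elsewhere their counts past a threshold are descriptions. Named context genes are those called in the knock-down comparison plus EED and SUZ12. Further context genes and the cell type markers, which the rule gave as counts only, were named after their values were seen. Correlates of SUV39H1 had a mean log2 CPM of at least 3. Alternatives were DESeq2 1.42.0, its size factors, other filters, other thresholds, a pooled dispersion, a replicate block and leaving out each library. The code was tested on simulated data. Replicates differed by more than counting noise (chi-square per degree of freedom 1.95 to 108 over 24 pairs). Replicates are biological according to the study.

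Replicate numbers were checked by the correlation of deviations from group means. In A375 shMCM7 noDox and parental noDox it was 0.28, 0.19 and 0.32 for the 3 pairs, all above 0.1, so the block is given beside that comparison; the numbers come from the labels, which do not say what they share.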

Additional observations from a re-analysis of the deposited data

Results flagged for a closer look

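The differences between Dox and noDox libraries of SUV39H1 and SETDB2 had opposite signs in shMCM7 and parental A375 cells for every same-numbered pair of libraries. The difference was not tested, and the numbers were not found to pair these libraries. For SUV39H1 the mean log2 difference was -1.15 in shMCM7 and 0.074 in parental cells, which differ by -1.22, and the gene was chosen on the first of these. For SETDB2 the means were 0.023 and -0.13, which differ by 0.16, and the single differences in shMCM7 cells were 0.0070, 0.0011 and 0.061. The fitted SETDB2 value in shMCM7 cells, 0.0050, changed sign under 2 alternatives.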

How the results depend on the processing

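In the A375 knock-down, 1 member was past the thresholds, SUV39H1, for which the set was chosen, so its steadiness is no support. The FDR alone gave 5, and the other alternatives, the replicate block and the DESeq2 test included, gave 1. SUV39H1 lay between -1.21 and -1.12 with 1 library left out. Against parental Dox, 2 members were called, but 1 by glmTreat against 1.5-fold, 4 by the FDR alone and 1 to 2 with 1 library left out, and the block left 2. In the other comparisons no member was called under any alternative, the block included. By label in A549 shMCM7, SUV39H1 changed sign without a filter (0.0020) and ranged from -0.33 to 0.28 with 1 library left out, and SUZ12 in the A375 knock-down ranged from -0.054 to 0.025. CBX7, CCNB2 and AURKA were not called by glmTreat, whose FDR for them was 0.062, 1.00 and 0.11, and EPOP and KDM4D, not called with all libraries, passed the thresholds with 1 library left out in 2 and 3 cases. Of 112 log2 fold changes of members under 14 alternatives in the A375 knock-down, 2 changed sign, both of SETDB2.

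Replicate numbers did not pair the A375 knock-down libraries by the criterion used (r of 0.24, 0.082 and 0.22), although each library correlated best with its own number, 3 of 3. The replicate block moved the calls over all genes there from 1934 to 2060, and in parental A375 from 0 to 12. The glmTreat test called 220 genes higher and 279 lower in the knock-down, against 897 and 1037. In A549 the shMCM7 pairs had r of 0.20, -0.64 and -0.67. Counts of SETDB2 in A549, as low as 92 reads, limit its precision.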

Other observations

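In A549, whose labels and MCM7 levels disagree, values of several members fell into separate clusters by library. In shMCM7 Dox replicate 3, shMCM7 noDox replicate 2 and parental noDox replicate 2, the libraries with MCM7 at 98.2, 102 and 92.4 CPM, SUV39H1 was at 17.9, 16.8 and 15.3 CPM, and the other A549 libraries lay between 34.7 and 42.3 CPM. SUV39H2 was at 20.9, 24.0 and 24.9 CPM in these 3, below 30.2 to 35.2 CPM in the others. SETDB1 was at 28.1, 30.0 and 27.4 CPM, below 32.9 to 36.2 CPM. EZH2 was at 54.2, 59.3 and 62.0 CPM, below 63.3 to 74.2 CPM. EZH1 was at 39.8, 42.8 and 41.5 CPM, above 23.2 to 37.2 CPM in the others. EHMT1, at 59.3, 57.6 and 48.2 CPM, lay both inside and above the 47.4 to 57.2 CPM of the others, and EHMT2, at 61.4, 60.7 and 51.8 CPM, likewise against 40.1 to 54.3 CPM. SETDB2 was at 6.64, 7.28 and 8.0 CPM against 5.15 to 6.80 CPM. These libraries were not averaged or tested as a group, since no label sets them apart. The share of all genes that separate these 3 libraries from the others was not counted. Nothing particular to the members is therefore read from these separations.

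The summed G2/M markers in the same 3 A549 libraries were 1947, 2083 and 2078 CPM, against 2117 to 2492 CPM in the others. The summed G1/S markers overlapped, at 2953, 3061 and 3106 CPM against 2975 to 3270 CPM in the others. The ratio of EZH2 to EZH1 per kilobase of exon was 2.11, 2.14 and 2.31 in these 3 libraries, and at least 2.93 in every other A549 library.

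In A375 shMCM7 noDox replicate 1, MCM7 was at 0.37 times the mean of replicates 2 and 3, whereas SUV39H1 was at 0.90 times, SUV39H2 at 0.90 times, SETDB1 at 0.86 times and EZH1 at 1.13 times that mean. In the A549 library labelled shMCM7 noDox replicate 2, MCM7 was at 102 CPM and SUV39H1 at 16.8 CPM, beside 128 CPM and 45.2 CPM in this A375 library.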
